A study of Drosophila melanogaster with 12 samples.

Results

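Genes for antimicrobial peptides, the short secreted proteins with which flies kill bacteria and fungi, were followed in polysome fractions of fruit flies on rich and on restricted food. The set held 10 genes chosen by name, namely Mtk, DptA, DptB, Drs, Dro, AttA, AttC, AttD, CecA1 and Def. A gene counted as measured when a probe set of the array carried its symbol alone, after symbols had been updated through the gene identifier. By that rule 5 of the 10 genes were measured, each by 1 probe set, of 11982 genes named on the array in all. Mtk, DptB, Drs and Def were bright enough to test, while AttD was among the dimmest 40% of probe sets and is described without a test. DptA, Dro, AttA, AttC and CecA1 were not analysed here. In the gene table DptB lies beside DptA, and Dro lies beside AttA.

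The flies were males of the strain w1118, a white-eyed laboratory line of Drosophila melanogaster. At 1 to 2 days of age they were moved to food with 4% or with 0.25% yeast extract (YE), and they stayed on it for 6 days. About 100 whole males were pooled for an extract, so a value stands for all tissues of many animals. A sucrose gradient then split mRNAs by the ribosomes they carried, into a low fraction with 1 to 4 ribosomes and a high fraction with 5 or more. The 4 groups were therefore the high and the low fraction on 4% YE and the high and the low fraction on 0.25% YE, with 3 biological replicates and 3 arrays each. No infection is named in the labels. The question put by the study was how restriction of yeast changes the translational index, which is the log2 ratio of an mRNA's level in the high fraction to its level in the low one.

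In adult flies most antimicrobial peptides are made by the fat body, the counterpart of liver and adipose tissue, and are released into the haemolymph. Their transcription is switched on by NF-kappaB factors at the end of a pair of pathways. The Toll pathway answers mainly to fungi and to many Gram-positive bacteria through Dif and dl, and the IMD pathway answers to bacteria with meso-diaminopimelic acid in their peptidoglycan, most of them Gram-negative, through Rel. Drs encodes drosomycin, an antifungal peptide that serves as the standard readout of Toll. DptB encodes a diptericin, a peptide against Gram-negative bacteria that serves as a readout of IMD. Mtk encodes metchnikowin, a proline-rich peptide that both pathways can induce, and Def encodes defensin, which acts mainly on Gram-positive bacteria. AttD belongs to the attacins, glycine-rich peptides against Gram-negative bacteria.

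The values below are probe-set intensities after quantile normalization over the 12 arrays, and differences are on the scale of log2(intensity + 1) with standard errors (SE) from a limma model of all 12 arrays. A call is a Benjamini-Hochberg adjusted p under 0.05 over the 11261 probe sets tested. Replicate 1 stood apart from the others in every group. Its log2 intensities correlated at 0.859 to 0.943 with those of replicates 2 and 3 of the same group, which correlated at 0.979 to 0.988 with each other. Results are therefore also given without replicate 1. Values blocked on the replicate number are added where the block changed a call or a count. Between 59.0% and 66.4% of probe sets per array were above the 95th percentile of the control probe sets, and 3 arrays per group limit the precision. The high and low fraction of a diet and number come from 1 extract if the numbers match, so the arrays behind an average over both fractions are not all independent. In RNA from whole flies, fewer cells of a type and less RNA per cell cannot be told apart.

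**Figure D1:**
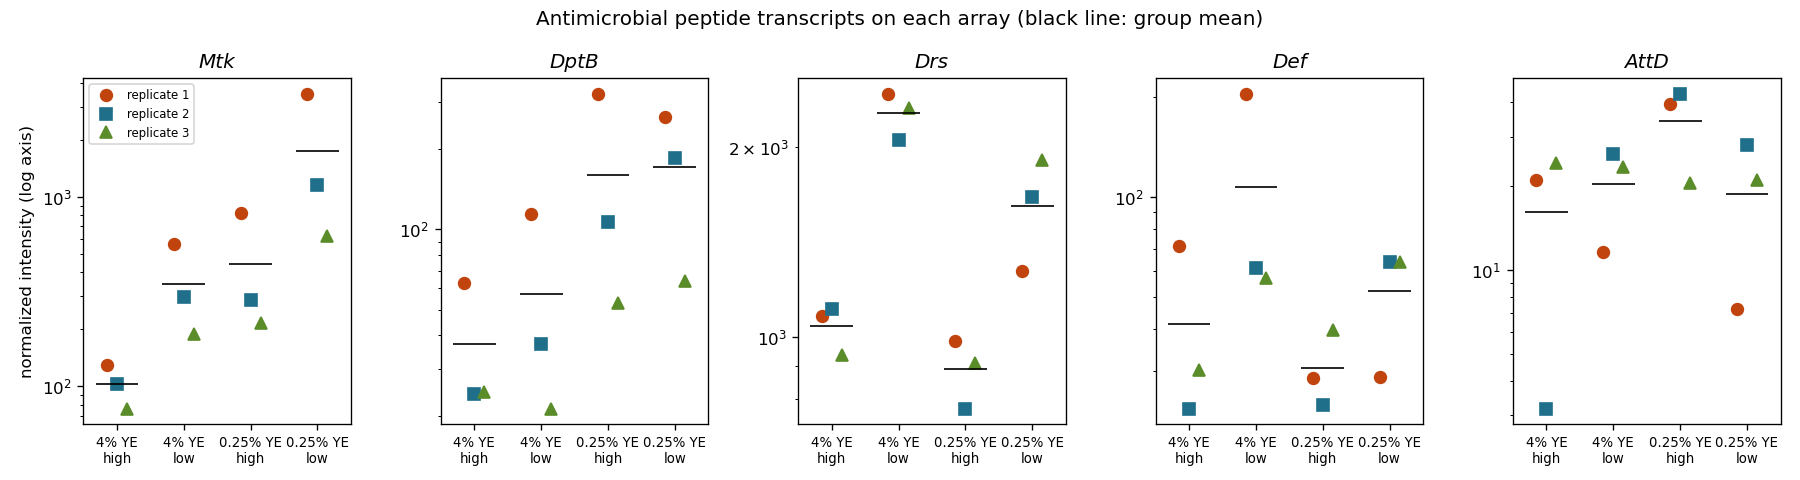
Normalized intensity (log axis, own range for each gene) of the 5 measured genes on each of the 12 arrays, with symbols for the replicate number and a black line at each group mean. Mtk lies higher on 0.25% YE than on 4% YE in both fractions without overlap, Drs lies higher in the low than in the high fraction on both diets, and the groups of DptB, Def and AttD overlap.

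The first comparison was of 0.25% with 4% YE within each fraction. Mtk and DptB were higher on 0.25% YE in both fractions and in every replicate number, whereas Drs and Def were not higher on average in either. Averaged over the fractions, Mtk was 3.96-fold and DptB 3.37-fold higher, and Mtk alone passed the test in the model without a block.

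Mtk in the high fraction on 4% YE had intensities of 130.0, 103 and 76.1 in replicates 1, 2 and 3, and on 0.25% YE of 823, 287 and 215. In the low fraction it had 562, 295 and 188 on 4% YE and 3507, 1153 and 620.3 on 0.25% YE. Within each fraction the lowest array on 0.25% YE was above the highest on 4% YE, and replicate 1 was the highest of its group in all 4. The high fraction had 11.8% and the low one 8.63% of all probe sets higher without overlap. Group means with standard deviation (SD, n = 3) in the high fraction were 103 ± 27.0 on 4% YE and 442 ± 332 on 0.25% YE, and in the low fraction 348 ± 193 and 1760 ± 1536. Taken within a replicate number, the high fraction was 6.29-, 2.76- and 2.81-fold and the low fraction 6.23-, 3.90- and 3.29-fold higher on 0.25% YE in numbers 1, 2 and 3.

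The log2 difference of Mtk was 1.87 ± 0.63 in the high fraction (limma adjusted p = 0.196) and 2.11 ± 0.63 in the low fraction (adjusted p = 0.20), so neither fraction alone passed without a block. Blocked on the replicate number, the adjusted p was 0.0048 (high fraction) and 0.0027 (low fraction). Averaged over both fractions the difference was 1.99 ± 0.45 with an adjusted p of 0.027 (0.00016 with the block), which placed Mtk at rank 10 from the top of the 11261 probe sets. Without replicate 1 the averaged difference was 1.66 with an adjusted p of 0.00011. When the fractions were first averaged within each diet and number, so that 3 values stood against 3, the adjusted p was 0.19 without and 0.0017 with the block. Without replicate 1, Mtk was called within each fraction alone, also without a block. Over all replicates at equal weight, the call depended on treating the replicate number as a pairing, or on counting both fractions of a diet and number. In the model without a block it also rested on single arrays, and leaving out 1 of 5 arrays, replicate 2 or 3 of either fraction on 4% YE or replicate 2 of the low fraction on 0.25% YE, gave adjusted p-values of 0.055 to 0.075. Without number 2 or without number 3 it was 0.42 and 0.094.

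DptB had high-fraction intensities of 63.2, 24.2 and 24.6 on 4% YE and of 321, 106 and 52.7 on 0.25% YE. In the low fraction it had 114, 37.3 and 21.3 on 4% YE and 264.6, 184 and 63.8 on 0.25% YE. The groups overlapped in both fractions, because replicate 1 on 4% YE lay above replicate 3 on 0.25% YE. Within a replicate number DptB was 5.02-, 4.27- and 2.10-fold higher on 0.25% YE in the high fraction and 2.32-, 4.84- and 2.91-fold higher in the low fraction. The probe set was above background on 11 of 12 arrays, the exception being 1 array of the low fraction on 4% YE.

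For DptB the log2 difference was 1.83 ± 0.75 in the high fraction (limma adjusted p = 0.30) and 1.68 ± 0.75 in the low fraction (adjusted p = 0.53). Averaged over the fractions it was 1.75 ± 0.53 with an adjusted p of 0.097, at rank 12 from the top. With the block all 3 adjusted p-values passed, at 0.0056 in the high fraction, 0.011 in the low fraction and 0.00038 averaged. Without replicate 1 the averaged difference was 1.74 (adjusted p = 0.0020). With 1 mean per diet and number it was called with the block (adjusted p = 0.0017) and not without it (adjusted p = 0.33).

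**Figure D2:**
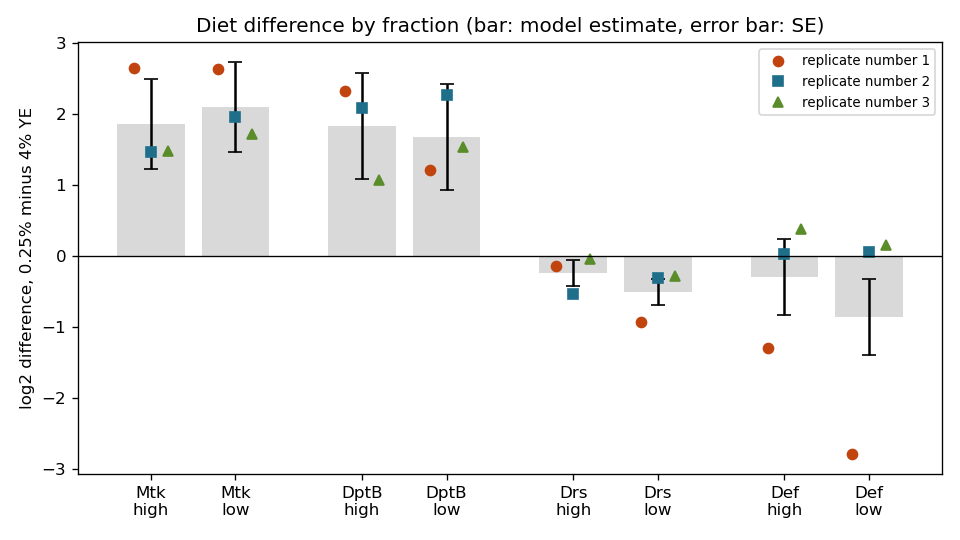
Diet difference (log2, 0.25% minus 4% YE) of the 4 tested genes in the high and low fractions, with the model estimate as a bar, its SE as an error bar and the difference within each replicate number as a symbol. All 6 symbols of Mtk and of DptB are above 0, and the negative bars of Def rest on replicate number 1, at -1.30 and -2.79.

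Drs was bright on every array and differed little between diets. Its high-fraction intensities were 1080.3, 1111 and 937 on 4% YE and 986, 771 and 911 on 0.25% YE, which overlap. In the low fraction the values were 2428, 2055 and 2313 on 4% YE and 1275, 1666 and 1907 on 0.25% YE, and all 3 arrays on the restricted diet were below the lowest on the rich one, as in 8.21% of all probe sets. The log2 difference was -0.23 ± 0.19 in the high, -0.50 ± 0.19 in the low and -0.37 ± 0.13 averaged over the fractions (limma adjusted p = 0.68, 0.38 and 0.18). Without replicate 1 the averaged difference was -0.29 with an adjusted p of 0.049.

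Def was lower on 0.25% YE in replicate number 1 and not in the other two. In the high fraction it had 71.5, 23.1 and 30.2 on 4% YE and 28.5, 23.7 and 39.8 on 0.25% YE. In the low fraction it had 204, 61.1 and 57.0 on 4% YE and 28.7, 64.0 and 63.9 on 0.25% YE. Def had a mean of 58.0 and was above background on 11 of 12 arrays. The log2 difference averaged over the fractions was -0.57 ± 0.38 (limma adjusted p = 0.53) over all replicates and 0.16 without replicate 1 (adjusted p = 0.58), so its sign came from replicate 1. AttD had a mean of 22.4 over the 12 arrays and was above background on 8 of them. Its intensities in the high fraction were 21.1, 3.2 and 24.2 on 4% YE and 39.6, 42.8 and 20.6 on 0.25% YE, and in the low fraction 11.6, 26.0 and 23.4 against 7.2, 28.0 and 21.1. The groups of AttD overlapped in both fractions.

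Counted together, 0 of the 4 tested genes were called in the high fraction by limma without a block, where 1.76% of all probe sets were called, and 2 had an unadjusted p under 0.05. In the low fraction 0 were called, against 0.968% of all probe sets, and 3 had an unadjusted p under 0.05. In the average over both fractions 1 was called, Mtk, and it was higher, as were 1.23% of all probe sets, while 2.9% were called lower. Without replicate 1, Mtk and DptB were called higher in the average and Drs lower, where 11.9% of all probe sets were called higher and 10.4% lower. Mtk and DptB were then also called higher within each fraction, with 22.2% (high) and 7.96% (low) of all probe sets called in either direction. With the replicate block Mtk and DptB were called higher in the high fraction, in the low fraction and in the average, where 1.89%, 0.453% and 3.19% of all probe sets were called higher. The median log2 difference of the 4 genes was 0.80 in the high fraction, 0.59 in the low fraction and 0.69 averaged, beside 0.02, 0.03 and 0.04 over all probe sets tested.

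Of 3 tested markers of the fat body, where these peptides are mainly made, 2 were called lower on 0.25% YE in the average and 0 higher. Of all probe sets 2.9% were called lower and 1.23% higher. Lsp2, a larval storage protein also made in adult fat body, had intensities of 5856 to 6990 in the high and 4338 to 4975 in the low fraction on 4% YE, and of 17.8 to 174 and 15.1 to 94.2 on 0.25% YE. Its averaged log2 difference was -6.49 ± 0.54 (limma adjusted p = 3.1e-05). Fst, listed with the fat body markers, fell by 2.20 ± 0.16 on the log2 scale (limma adjusted p = 1.2e-05), and apolpp, the precursor of the main lipid carrier of the haemolymph, differed by -0.11 ± 0.11 (adjusted p = 0.70). Of 6 fat body markers listed, 4 had a probe set, and Fbp1 was at background on all 12 arrays. Their summed intensity was 13327 to 15691 in the high and 10151 to 10964 in the low fraction on 4% YE, and 5063 to 8012 and 4547 to 5444 on 0.25% YE. The summed intensity of 6 haemocyte markers, genes of the circulating blood cells, was 1605 to 3612 on 4% YE and 1206 to 3157 on 0.25% YE over both fractions, with 0 called between diets by limma. The part of these markers in the differences of Mtk and DptB was not tested.

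Next, the fractions were compared with each other on each diet. All 4 tested genes had a negative estimated index on both diets, that is a higher level in the low fraction, and Drs alone passed the test on each without a block. Drs had a log2 index of -1.12 ± 0.19 on 4% YE (limma adjusted p = 0.0011) and of -0.85 ± 0.19 on 0.25% YE (adjusted p = 0.0098). On both diets every low-fraction array of Drs was above every high-fraction array, as for 27.5% of all probe sets on 4% YE and 17.3% on 0.25% YE. Within replicate numbers 1, 2 and 3 the index was -1.17, -0.89 and -1.30 on 4% YE and -0.37, -1.11 and -1.06 on 0.25% YE. With intensities taken as deposited, without normalization, the call for Drs was lost on both diets (adjusted p = 0.089 and 0.57), and with median centring on 0.25% YE (adjusted p = 0.067). Without number 2 or number 3 the adjusted p was 0.057 and 0.066 on 4% YE and 0.36 and 0.17 on 0.25% YE, and without replicate 2 of the high fraction on 0.25% YE it was 0.053 on that diet. Relative to the median of all probe sets, the index of Drs as deposited was -1.18 on 4% YE and -0.73 on 0.25% YE.

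Mtk had the most negative estimate of the 4, with a log2 index of -1.63 ± 0.63 on 4% YE (limma adjusted p = 0.064) and -1.87 ± 0.63 on 0.25% YE (adjusted p = 0.053). With the replicate block it was called on both diets, with adjusted p-values of 0.0010 and 0.0011, and without replicate 1 the index was -1.40 and -1.76 (adjusted p = 0.0011 and 0.00026). Within replicate numbers 1, 2 and 3 it was -2.10, -1.50 and -1.29 on 4% YE and -2.09, -2.003 and -1.52 on 0.25% YE. The fractions of Mtk did not overlap on 4% YE and overlapped on 0.25% YE, where the highest high-fraction array had 823 and the lowest low-fraction array 620.3. Taking the index within each diet and number, as if its fractions shared an extract, also called Mtk on both diets (limma adjusted p = 0.0023 and 0.0042).

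Def had an index of -1.26 ± 0.54 on 4% YE (limma adjusted p = 0.089) and -0.69 ± 0.54 on 0.25% YE (adjusted p = 0.37). Without replicate 1 it was -1.13 and -1.03, called on both diets (adjusted p = 0.0032 and 0.0063). The high-fraction intensities of Def in replicates 2 and 3, from 23.1 to 39.8, were near background (13.8 to 24.6 over the arrays). DptB had -0.41 ± 0.75 and -0.26 ± 0.75 (adjusted p = 0.70 and 0.83), and its sign differed between replicate numbers, at -0.84, -0.61 and 0.20 on 4% YE and 0.28, -0.79 and -0.27 on 0.25% YE.

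By limma, 1 of 4 was called lower in the high fraction on 4% YE, where 17.9% of all probe sets were called lower and 16.3% higher, and 1 of 4 on 0.25% YE, where 11.8% were called lower and 9.66% higher. With the block 2 of 4, Drs and Mtk, were called lower on each diet, against 22.5% and 18.1% of all probe sets, while 22.8% and 16.8% were called higher. Without replicate 1, Drs, Mtk and Def were called lower on each diet, against 30.5% and 29.1% of all probe sets, while 31.3% and 28.4% were called higher. The median index of the 4 genes was -1.19 on 4% YE and -0.77 on 0.25% YE, beside 0.02 over all probe sets on each diet.

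**Figure D3:**
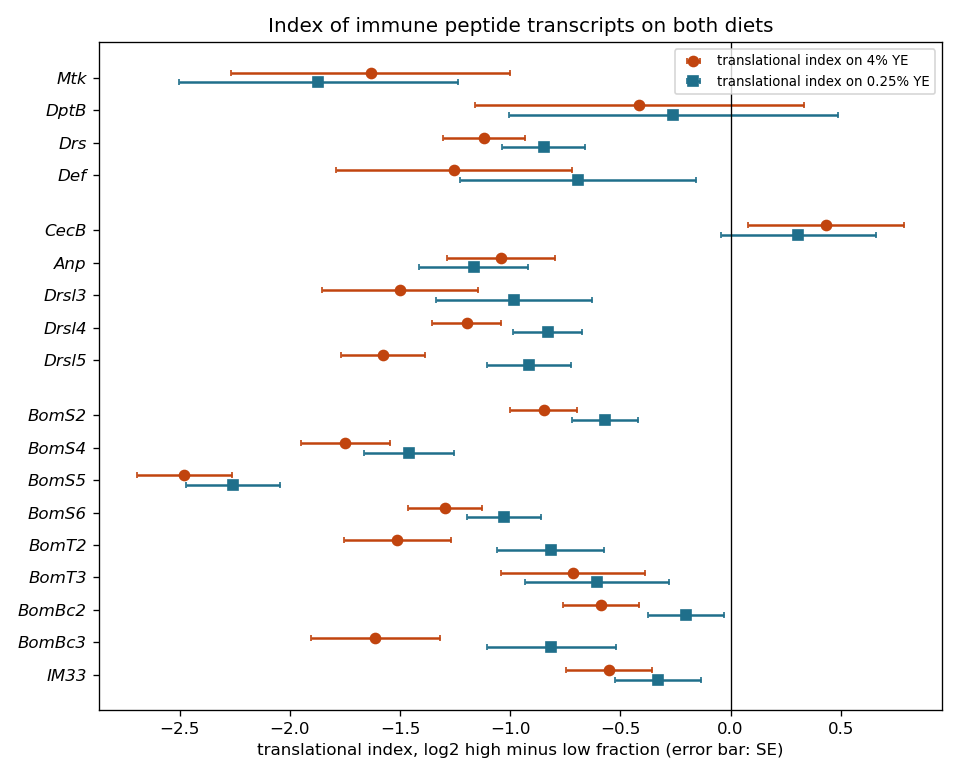
Translational index (log2, high minus low fraction) with its SE of the 4 tested genes, 5 other antimicrobial peptide genes and 9 Bomanin and related genes on 4% YE (circles) and 0.25% YE (squares). All estimates except those of CecB, which was near background, are below 0, from -2.48 for BomS5 on 4% YE. No gene shown had a called change of index between diets.

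The third comparison was the change of the index, the index on 0.25% YE minus that on 4% YE. By limma 0 of the 4 genes were called, with an unadjusted p under 0.05 in 0, and over all probe sets 0.00888% were called. The change was -0.24 ± 0.89 for Mtk, 0.15 ± 1.06 for DptB, 0.27 ± 0.26 for Drs and 0.56 ± 0.76 for Def. The 95% intervals ran from -2.18 to 1.71 for Mtk, from -2.14 to 2.45 for DptB, from -0.30 to 0.84 for Drs and from -1.08 to 2.21 for Def. For Mtk, DptB and Def a change of more than 2-fold in either direction is inside the interval, so the data do not show that their distribution over the fractions was alike on both diets.

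Correlations among the 4 genes are a description of the 12 arrays, which share replicate number and fraction. Mtk and DptB correlated at r = 0.84 over all arrays and at 0.83 over the 8 arrays of replicates 2 and 3, and their departures from group means at 0.91. Drs and Def correlated at 0.75 and, without replicate 1, at 0.86. Over all arrays r was 0.25 for Mtk with Drs, 0.11 for Mtk with Def, -0.13 for DptB with Drs and 0.02 for DptB with Def. Without replicate 1 these were 0.43, 0.67, -0.12 and 0.21, so the low value of Mtk with Def rested on replicate 1. Of all genes tested, the 5 whose log2 levels followed the mean standardised profile of the 4 genes most closely over the 12 arrays were Dark (r = 0.964), NKAIN (0.953), jagn (0.947), CG7772 (0.947) and CG11367 (0.947). Dark is the fly counterpart of Apaf-1, and jagn encodes a protein of the endoplasmic reticulum. By limma 0 of these 5 were called between diets in either fraction or in the average, where their log2 differences were 0.05 to 0.34. All 5 had negative indices, which their choice by likeness to the 4 peptide genes over arrays of both fractions largely brings about.

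Other antimicrobial peptide genes were next compared as a list of 12, of which 9 had a probe set and 5 passed the filter. Between diets 0 of the 5 were called by limma in the high fraction, the low fraction or the average (1, 0 and 1 with an unadjusted p under 0.05). Without replicate 1, 1 was called higher (Drsl5, 0.35) and 1 lower (Anp, -0.45) in the high fraction, 0 in the low fraction, and 1 lower in the average (Anp, -0.35). Of all probe sets 22.2% were then called in the high fraction in either direction, and 10.4% lower in the average. The list's median log2 difference averaged over the fractions was 0.06. CecB, a cecropin, differed by -0.09 ± 0.25 and Anp, the male reproductive tract peptide andropin, by -0.16 ± 0.17 (limma adjusted p = 0.92 and 0.74). With a mean of 26.1, CecB was near the filter, and it was above background on 10 of 12 arrays. Drsl3, Drsl4 and Drsl5, relatives of drosomycin, differed by 0.18 ± 0.25, 0.06 ± 0.11 and 0.35 ± 0.14 (adjusted p = 0.81, 0.86 and 0.21).

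In their index 4 of these 5 were called lower on 4% YE and 3 on 0.25% YE, with list medians of -1.20 and -0.91. Of all probe sets 17.9% and 11.8% were called lower. With the block, and also without replicate 1, the count was 4 of 5 on each diet. The shares of all probe sets were then 22.5% and 18.1% with the block, and 30.5% and 29.1% without replicate 1. The genes named here and below for their index were picked after their values were seen. Drsl5 had high-fraction intensities of 862, 1104 and 1069 and low-fraction intensities of 2945, 2959 and 3106 on 4% YE, an index of -1.58 ± 0.19 (limma adjusted p = 0.00028). On 0.25% YE its index was -0.91 ± 0.19 (adjusted p = 0.0078). Anp had -1.04 ± 0.25 and -1.17 ± 0.25 (adjusted p = 0.0070 and 0.0083), and Drsl4 had -1.20 ± 0.16 and -0.83 ± 0.16 (adjusted p = 0.00035 and 0.0051). Whether probe sets of drosomycin and its relatives take up each other's RNA was not tested.

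The Bomanins are short secreted peptides that depend on Toll and are needed for resistance to many fungi and Gram-positive bacteria. Of 21 genes on the list of Bomanins and related immune-induced peptides, 9 were tested. Between diets 0 of 9 were called by limma in the high fraction, the low fraction or the average, with an unadjusted p under 0.05 in 5, 0 and 3, and medians were 0.43, 0.04 and 0.27. With the replicate block 2 were called higher in the high fraction and in the average, BomT2 and BomS2. Of all probe sets 1.89% and 3.19% were then called higher. BomT2 had high-fraction intensities of 986, 817 and 589 on 4% YE and of 1826, 1366 and 1467 on 0.25% YE, higher without overlap, as in 11.8% of all probe sets. Its log2 difference in that fraction was 0.98 ± 0.24 (limma adjusted p = 0.071, and 0.010 with the block). BomS2 differed by 0.50 ± 0.15 there (adjusted p = 0.14, and 0.044 with the block). Without replicate 1, 5 of 9 were called higher in the high fraction, 0 in the low fraction and 5 in the average, namely BomS2, BomS5, BomT2, BomBc2 and BomBc3, and the median in the high fraction was 0.56. Of all probe sets 22.2% were then called in the high fraction in either direction, and 11.9% higher in the average.

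On 4% YE 8 of the 9 had a called negative index, with a list median of -1.30, and on 0.25% YE 5 of 9, with a median of -0.81. Of all probe sets 17.9% and 11.8% were called lower. Without replicate 1 all 9 were called negative on both diets, with medians of -1.22 and -0.90. Of all probe sets 30.5% and 29.1% were then called lower. BomS5 had the most negative index of the list. Its intensities on 4% YE were 399, 549 and 428 in the high and 2861, 2405 and 2377 in the low fraction, and on 0.25% YE 585, 691 and 846 in the high and 4303, 3026 and 2888 in the low fraction. The index of BomS5 was -2.48 ± 0.21 on 4% YE and -2.26 ± 0.21 on 0.25% YE (limma adjusted p = 0.00011 and 0.00080), and the fractions did not overlap on either diet. Of all probe sets 27.5% on 4% YE and 17.3% on 0.25% YE were lower in the high fraction without overlap. BomT3 was not called on 4% YE over all replicates, at -0.72 ± 0.33 (adjusted p = 0.11).

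**Figure D4:**
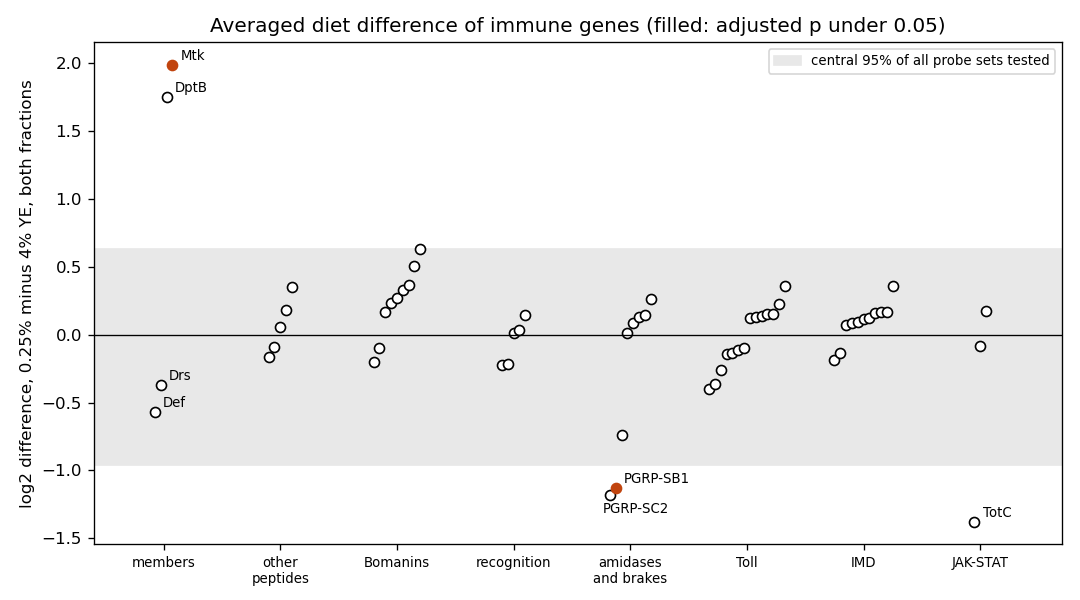
Averaged diet difference (log2, 0.25% minus 4% YE) of each tested gene of 8 lists (members are the 4 antimicrobial peptide genes of the set), with genes called by limma without a block filled and the central 95% of all tested probe sets in grey. Mtk at 1.99 and PGRP-SB1 at -1.13 are the 2 called genes.

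The genes of immune recognition and signalling were then set beside the peptides. Of 11 genes for peptidoglycan and glucan recognition 5 were tested, and 0 were called between diets by limma in either fraction or in the average, with an unadjusted p under 0.05 in 0. Without replicate 1 there was 1 call, PGRP-LF higher in the average (0.42, limma adjusted p = 0.029), as were 11.9% of all probe sets. PGRP-LE, an intracellular sensor of IMD, differed by 0.04 ± 0.19 in the average. In the average 2.9% of all probe sets were called lower and 1.23% higher. Of 12 genes listed as amidases or as brakes on IMD, 8 were tested and 1 was called in the average. This was PGRP-SB1, a secreted peptidoglycan-cleaving amidase, whose change was opposite to that of Mtk. Its intensities were 1817, 889 and 875 in the high and 974, 1046 and 872 in the low fraction on 4% YE, against 740.2, 674 and 495 and 225, 452 and 457 on 0.25% YE. All arrays on 0.25% YE were below all arrays of the same fraction on 4% YE. In the low fraction this held for 8.21% of all probe sets, and the share in the high fraction is not given here.

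PGRP-SB1 fell by 1.13 ± 0.24 on the log2 scale in the average (limma adjusted p = 0.019, and 0.016 with the block), and without replicate 1 the difference was -0.84 (adjusted p = 0.00021). The amidases PGRP-SC2 and PGRP-LB, which trim peptidoglycan and so limit IMD, differed by -1.18 ± 0.48 and -0.74 ± 0.24 (adjusted p = 0.24 and 0.12). Whether PGRP-SB1 limits IMD was not tested. PGRP-SC2 and PGRP-LB were called lower without replicate 1, at -0.67 and -0.71 (adjusted p = 0.00016 and 0.0049). Of all probe sets 10.4% were then called lower and 11.9% higher. The gene pirk, whose product holds the IMD receptor back and which IMD itself induces, differed by 0.27 ± 0.21 (adjusted p = 0.63), and without replicate 1 it was called higher, at 0.63 (adjusted p = 0.0069).

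Of 18 Toll pathway genes 14 were tested, and 0 were called between diets by limma in the high fraction, the low fraction or the average, with an unadjusted p under 0.05 in 0, 2 and 2. Of all probe sets 1.76% (high) and 0.968% (low) were called in either direction, and 1.23% higher and 2.9% lower in the average. The ligand gene spz differed by 0.15 ± 0.29 in the average, the receptor gene Tl by 0.22 ± 0.23, the inhibitor gene cact by -0.10 ± 0.22, and the factor genes dl and Dif by 0.14 ± 0.15 and 0.36 ± 0.16. List genes with several probe sets were read from the brightest. A dimmer tested probe set of cact had means of 172 (high) and 124 (low) on 4% YE, and of 162 and 217 on 0.25% YE. That of dl had 112 and 69.2 on 4% YE, and 134 and 106 on 0.25% YE. Without replicate 1 cact was called lower in the high fraction (-0.63), Myd88 higher in the low fraction (0.66) and spz higher in the average (0.39). Of all probe sets 22.2% (high) and 7.96% (low) were then called in either direction, and 11.9% higher and 10.4% lower in the average. Of 13 IMD pathway genes 11 were tested, and 0 were called in any of the 3 diet differences, with an unadjusted p under 0.05 in 0. Without replicate 1 these were called higher: ben in the high fraction (0.44), and ben and akirin in the average (0.29 and 0.46). The shares of all probe sets are those given for the Toll genes. The adaptor gene imd differed by -0.19 ± 0.20 and the factor gene Rel by 0.12 ± 0.24. These are transcript levels in polysome fractions, and the activity of the pathways was not measured. Of 14 JAK-STAT and stress peptide genes 3 were tested, 0 were called, and TotC, a stress-induced humoral peptide, differed by -1.38 ± 0.55 in the average (adjusted p = 0.24). In TotC numbers 1 and 2 were lower on 0.25% YE in both fractions and number 3 higher, and without replicate 1 the average was -0.41 (adjusted p = 0.45).

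In the index the pathway genes went in both directions. Of all probe sets 16.3% were called higher and 17.9% lower on 4% YE, and 9.66% and 11.8% on 0.25% YE. On 4% YE 4 of 14 Toll genes were called higher in the high fraction, Tl, Pli, dl and Dif, and 1 lower, the adaptor gene tub. On 0.25% YE Tl was called higher and tub lower, with indices of 1.17 ± 0.32 and -1.15 ± 0.26 (limma adjusted p = 0.025 and 0.011). Of 11 IMD genes 2 were called lower on 4% YE, Diap2 and Uev1A, and on 0.25% YE Diap2 was called lower and key higher. These counts moved with the block and without replicate 1, as did the shares of all probe sets. On 4% YE 22.8% were called higher and 22.5% lower with the block, and 31.3% and 30.5% without replicate 1. On 0.25% YE the shares were 16.8% and 18.1% with the block, and 28.4% and 29.1% without replicate 1. Toll genes called higher numbered 6 with the block and 8 without replicate 1 on 4% YE, and 2 and 5 on 0.25% YE, with 1 lower in each case except 2 without replicate 1 on 0.25% YE. IMD genes called higher and lower numbered 1 and 2 with the block and 2 and 3 without replicate 1 on 4% YE, and 2 and 2, then 3 and 3, on 0.25% YE. The median index of the Toll list was 0.53 on 4% YE and 0.06 on 0.25% YE, and that of the IMD list was 0.01 and 0.07, beside -1.19 and -0.77 for the 4 antimicrobial peptide genes. The lists were not matched for the length of their coding sequences, and the part of that length in the index was not tested.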

How the data were processed

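RNA of 12 samples (100 ng each) was hybridised in 1 colour to Drosophila arrays, per the labels' protocols. The deposited intensity values, 1 per probe set, were linear, with 9.51% to 13.8% below 0 and array medians from 39.3 to 95.6. For the summarising program and any scaling, nothing is given in the sources used here. Symbols came from the platform annotation (13647 of 18769 probe sets with 1 symbol, 402 with several and 4720 with none), and 13544 matched the gene table. The genes and lists were chosen with earlier results of these data known.

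After 100 controls were left out, values were quantile normalized, floored at 0, put on log2(value + 1) and filtered (40% with the lowest mean, below 23.7), which left 11261 probe sets. A model with 4 group means was fitted in R 4.3.3 by limma 3.58.1 (eBayes with trend). All adjusted p-values are two-sided and Benjamini-Hochberg over all probe sets. They rest on the spread between replicate arrays. Except with the block or 1 value per diet and number, the high and low arrays of a number were treated as independent. Background is each array's 95th percentile of controls (13.8 to 24.6). These steps were tested on simulated data with independent noise on each array. That simulation held no effect shared by arrays of a replicate number, so it does not cover such an effect.

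The naming rule covered all set members, list genes called between diets, and 5 genes of like profile. Other list genes (peptide genes, and pathway genes given by role or for their index) fall outside it and were chosen after their values were seen. Replicate numbers came from the titles (the first 4% YE replicate has none), and what they stand for is not given. Departures of same-numbered arrays from group means correlated at 0.166 to 0.669 in all 12 pairs, so the number was also fitted as a block. Alternatives were no normalization, median centring, pseudocount 16, no filter, array weights, only the arrays of a contrast, the block and leaving out replicates. Added after seeing the data were 1 value per diet and number, and lists with the block or without replicate 1. No pair of arrays was identical (0 pairs) and 0 columns were unused. No sequence or genome position is given.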

Additional observations from a re-analysis of the deposited data

How the results depend on the processing

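Mtk and DptB had higher estimates on 0.25% YE, and Mtk and Drs lower ones in the high fraction, under every alternative run, although not always past the threshold. Of 564 values of the 4 genes under alternatives, for 24 results, 480 kept direction and side of the threshold, 18 fell below it, 44 rose past it and 22 turned sign. Except where stated, the cause was not tested. Of the 4 genes, the number called was as follows. With the replicate block it was 2 in each diet difference and in each index. With array weights, whose estimation stopped before its tolerance was reached and which called 2912 probe sets for the index change against 1 without them, it was 3 in each diet difference, 3 for the index on 4% YE and 4 on 0.25% YE. With 1 mean per diet and number it was 0 for the averaged diet difference, and 2 with the replicate block. Taken within each diet and number it was 3 for the index on 4% YE and 2 on 0.25% YE. Without the filter it was 0 for the averaged diet difference. As deposited it was 0 for both indices, and with median centring 0 for that on 0.25% YE. With pseudocount 16 it was 2 for the index on 0.25% YE. With only the arrays of the contrast it was 2 for the index on 4% YE and 0 on 0.25% YE. When 1 array or 1 replicate number was left out, it ranged from 0 to 2 in the high and from 0 to 2 in the low fraction, from 0 to 3 in the average, and from 0 to 3 for each index. The index change gave 0 under all of these.

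The averaged call for Mtk was lost without replicate 2 or 3 of the high fraction on 4% YE (limma adjusted p = 0.068 and 0.075), replicate 2 or 3 of the low fraction on 4% YE (0.072 and 0.071), replicate 2 of the low fraction on 0.25% YE (0.055), all of number 2 or 3 (0.42 and 0.094), or without the filter (0.085). The index of Drs on 4% YE was lost without number 2 or 3 (0.057 and 0.066), and on 0.25% YE without number 2 or 3 (0.36 and 0.17), without replicate 2 of the high fraction on 0.25% YE (0.053) and with only the arrays of the contrast (0.082). Signs turned with array weights for Def in the low fraction (0.0083) and for the index change of Def (-0.18) and DptB (-0.58), and as deposited for the index of DptB on 0.25% YE (0.10). With 1 array or number left out, the diet difference of Def ran from -0.63 to 0.21 in the high fraction, from -1.36 to 0.11 in the low fraction and from -0.997 to 0.16 averaged. The index of DptB ran from -0.94 to 0.24 on 4% YE and from -0.95 to 0.34 on 0.25% YE, and the index change from -0.81 to 0.45 for Mtk, from -0.028 to 1.03 for Def and from -0.54 to 0.75 for DptB.

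Over all probe sets, calls numbered 198 in the high fraction (0 to 3916 over the alternatives), 109 in the low fraction (0 to 4117), 465 averaged (44 to 4567), 3846 and 2412 for the indices on 4% and 0.25% YE (409 to 7702 and 0 to 8850) and 1 for the index change (0 to 2912). The lowest counts, except for the index change, were those without replicate 2. Calls that were higher made up 47.6% for the index on 4% YE (77.8% as deposited), 45.1% on 0.25% YE (92.2% as deposited, 56.7% with median centring), 30.3% in the high fraction (12.5% as deposited) and 29.7% averaged (18.7% with median centring). The median over all probe sets moved, with values as deposited, to 0.32 and 0.41 for the indices and to 0.21, 0.14 and 0.18 for the diet differences in the high fraction, the low fraction and the average, and with median centring to 0.12 for the index on 0.25% YE. Averaging all probe sets of a gene was not run, since each measured gene has 1. Probe sets near background, AttD, Def, DptB and CecB among them, are limited by their signal.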
